A study of Drosophila melanogaster with 20 samples.

Results

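Genes that encode structural proteins of the insect cuticle, together with the Osiris genes, were followed across every genotype of an eye-antennal disc study of the proneural factor Atonal (Ato). They were taken by symbol: Cpr followed by a number, Lcp followed by a number, Ccp84, Twdl, Pcp, Edg and Osi followed by a number. For each gene the brightest probe set that names only that gene was used. This gave 128 genes of 11982 with a probe set of their own, of which 104 were cuticle protein genes and 24 were Osi genes. A further 21 symbols of these families in the RefSeq annotation had no probe set of their own here, among them Lcp65Ag1, Lcp65Ag2, Ccp84Aa and Ccp84Ab, which are read only by probe sets shared between genes.

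Cuticle is a layer of chitin fibres and proteins that epithelial cells secrete at their apical surface and replace at each moult. Most Cpr, Lcp, Pcp and Ccp84 proteins carry the Rebers and Riddiford consensus, a stretch that binds chitin, whereas the Tweedle (Twdl) proteins belong to a separate cuticle protein family and the Edg genes were found through their response to the moulting hormone ecdysone. The Osiris genes encode insect proteins that enter the secretory pathway, lie mostly in a single cluster and are known from tissues that form cuticle. Eye-antennal discs are larval epithelial sacs that later give rise to the adult eye, antenna and head cuticle.

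RNA of eye-antennal discs from the third larval instar was hybridised on 20 Affymetrix Drosophila 2.0 arrays, and each value below is a deposited log2 level, so that a difference of 1 is a change by a factor of 2 in signal. Ato gain of function (GOF) consisted of 3 arrays of Gal4/7 x UASato and 3 of atoGal4 x UASato, in which 1 of 2 drivers expressed ato from a UAS transgene. Ato loss of function (LOF) consisted of 3 arrays of ato-/- discs, from an ato1/hshid stock that the study's methods describe as heat-shocked on consecutive days from the first instar on, a treatment that no other line is described as having had. Senseless (Sens) GOF consisted of 3 arrays of atoGal4 x UASsens, in which the same atoGal4 driver, the NP6558 insertion, expressed the zinc finger factor Sens. The controls were 2 arrays each of Gal4/7, atoGal4 and UASato, which carry a driver or the ato transgene alone, and of the wild type cantonS. There was no line with UASsens alone. Per the labels every line grew at 18 °C and spent 24 hours at 28 °C from early in the third instar on.

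The targeted transcripts followed the labels in the GOF lines. The ato level was 11.30 to 12.61 on the Ato GOF arrays, against 9.27 to 10.01 on the control arrays, and the sens level was 11.68 to 12.18 on the Sens GOF arrays, against 7.98 to 8.70 on the control arrays. In ato-/- discs the ato level was 9.99 to 10.35, so this probe set did not separate the mutant from the controls, and the level of sens, a known target of Ato, was 6.86, 8.11 and 4.50 there, so that array 2 lay within the control range. A list of 11 measured eye-antennal disc markers, ato among them, averaged 9.51 to 10.25 over all arrays. Sens GOF arrays 1 and 2 differed by an SD of 0.149 over all probe sets, whereas the other pairs of arrays of a line differed by 0.325 to 0.759, and the Sens GOF results are therefore also given with these arrays averaged. The widest of these, 0.759, was that of the 2 Gal4/7 control arrays. Gal4/7 control array 1 stood apart in several cuticle genes and is described at the end.

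The range of these genes over the 20 arrays had a median of 0.76, against 0.72 over all genes. Of the 128 genes 76, or 59.4%, ranged over less than 1, against 68.9% of all genes. At the same time 38 of them, or 29.7%, ranged over more than 2, against 13.6% of all genes. Of 24 Twdl genes 20 ranged over less than 1, and so did 18 of 24 Osi genes, 32 of 66 Cpr genes and all 3 Ccp84A genes. Of the 66 Cpr genes 24 ranged over more than 2, and of the 7 Lcp genes 4 did.

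A called change below means an adjusted p under 0.05 in limma with Benjamini-Hochberg adjustment over all probe sets. Against the 8 control arrays the 6 Ato GOF arrays together had 1 of the 128 genes called higher and 0 called lower, where 0.943% of all genes were higher and 0.284% were lower. Gal4/7 x UASato discs alone had 6 higher and 1 lower, against 1.96% and 0.526% of all genes, while atoGal4 x UASato discs had 0 in either direction, against 0.0835% and 0.00835%. Ato LOF discs had 6 higher and 8 lower, against 6.34% and 10.1% of all genes. Sens GOF discs had 2 higher and 0 lower, against 1.70% and 2.21%. In both directions together 5.47% of the 128 genes were called in Gal4/7 x UASato discs, against 2.49% of all genes. The share was 0.781% in Ato GOF (1.23% of all genes) and 0% in atoGal4 x UASato (0.0918%). It was 10.9% in Ato LOF, below the 16.4% of all genes, and 1.56% in Sens GOF (3.91%). At an unadjusted p under 0.05 the counts were 20 for Ato GOF (15.6%, against 13.4% of all genes), 18 for Gal4/7 x UASato (14.1%, against 12.5%) and 12 for atoGal4 x UASato (9.38%, against 8.36%). They were 30 for Ato LOF (23.4%, against 31.6% of all genes) and 23 for Sens GOF (18.0%, against 19.9%). All of these comparisons share the same control arrays. The median change of the 128 genes lay between -0.04 and 0.01 in all of them.

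**Figure D1:**
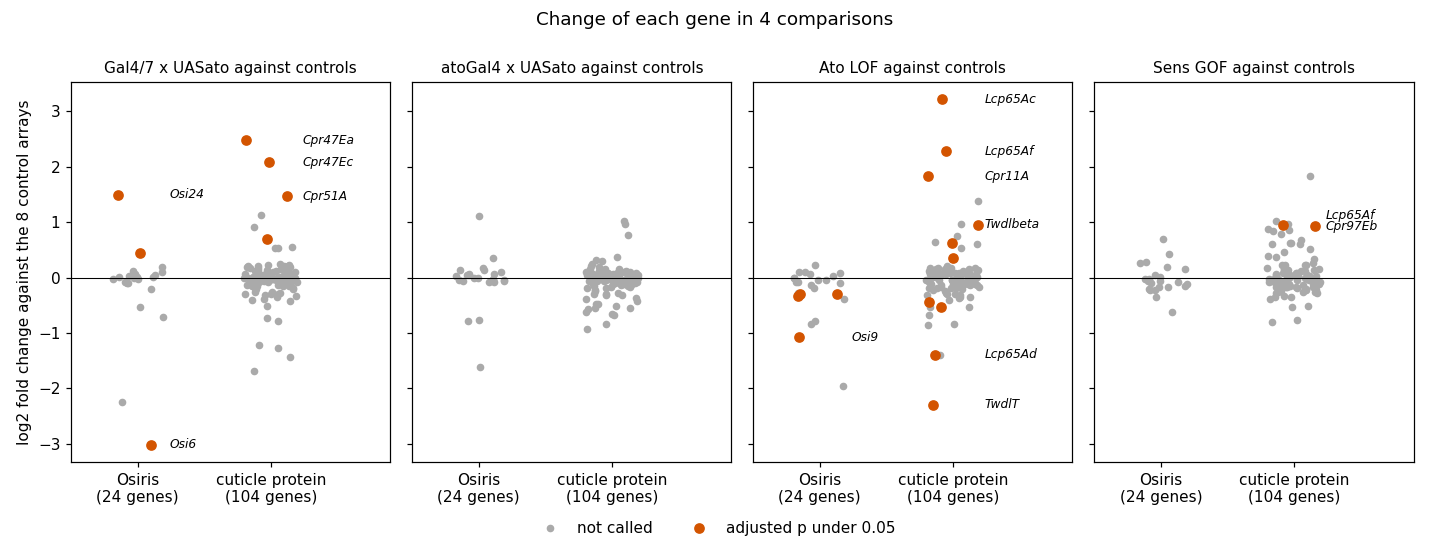
Log2 fold change against the 8 control arrays (y axis) of the 24 Osiris and 104 cuticle protein genes (x axis, spread sideways at random) in Gal4/7 x UASato, atoGal4 x UASato, ato-/- (Ato LOF) and atoGal4 x UASsens (Sens GOF) discs. Orange points are genes with an adjusted p under 0.05, named where the change is at least 0.9 in size, and most grey points lie close to 0 in every comparison.

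The Osiris genes are described first. Of the 24, 23 lie on chromosome arm 3R, and 21 of them fall in a single stretch of 28 neighbouring genes that begins with Osi1, Osi24, Osi2, Osi3, Osi4, Osi5 and Osi6. In this stretch the genes that moved stood beside genes that did not. Of the 24, Osi4, Osi6, Osi24, Osi9 and Osi2 ranged over more than 2 across the arrays. These 5 genes make up 20.8%, against 13.6% of all genes.

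Osi24 was the 1 gene called when both Ato GOF lines were pooled. Its level was 8.83, 8.56 and 8.58 in Gal4/7 x UASato discs and 8.48, 8.11 and 8.23 in atoGal4 x UASato discs, against 6.29 as the lowest, 7.24 as the median and 7.73 as the highest of the 8 control arrays. All 6 Ato GOF arrays lay above every control array. The log2 fold change was 1.30 (SE 0.19), with an adjusted p of 0.00554, and the call held in each of 22 alternative analyses, with changes of 1.10 to 1.38.

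Taken by driver, Osi24 was 1.49 higher in Gal4/7 x UASato discs (SE 0.25, adjusted p = 0.00938), a call that was lost without Gal4/7 x UASato array 2 or 3 (highest adjusted p = 0.0564). In atoGal4 x UASato discs the change was 1.11 (SE 0.25), which missed the threshold with an adjusted p of 0.215. Set against its own driver control alone, the change was 1.42 for Gal4/7 x UASato (adjusted p = 0.0346) and 0.66 for atoGal4 x UASato (adjusted p = 0.384). The control lines themselves were spread in Osi24, with means of 7.61 in atoGal4, 7.26 in UASato, 7.24 in Gal4/7 and 6.55 in cantonS, a spread that did not pass the test between control lines (adjusted p = 0.336).

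In the other genotypes Osi24 was not above the controls. Its level was 6.08, 6.56 and 6.36 in ato-/- discs, where 2 of 3 arrays lay within the control range and the change of -0.83 narrowly missed the threshold (adjusted p = 0.0543). It was 7.04, 7.22 and 6.77 in Sens GOF discs, in the middle of the control range, with a change of -0.15 (adjusted p = 0.805). The neighbours of Osi24 on the chromosome did not share its pattern: Osi1 ranged over 0.40 across all arrays, and Osi2 reached its highest levels, 7.09 and 6.98, in the cantonS controls and stayed between 4.83 and 6.07 elsewhere.

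Osi6 moved the other way. Its level was 3.44, 3.56 and 3.52 in Gal4/7 x UASato discs and 5.01, 4.62 and 5.10 in atoGal4 x UASato discs. Among the controls it was 4.55 and 4.78 in Gal4/7, 7.38 and 7.41 in atoGal4, 7.40 and 7.12 in UASato, and 6.48 and 7.05 in cantonS. The Gal4/7 x UASato arrays lay below all controls, whereas the atoGal4 x UASato arrays lay below 6 of the 8 controls and on a level with the Gal4/7 control or just above it.

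Osi6 was called lower in Gal4/7 x UASato discs than in the 8 controls (log2 fold change -3.02, SE 0.64, adjusted p = 0.0351). The call was lost when any of 9 of the 11 arrays was left out, the exceptions being both Gal4/7 control arrays (highest adjusted p = 0.166), and against the Gal4/7 and UASato controls alone (-2.46, adjusted p = 0.253). In atoGal4 x UASato discs the change of -1.61 did not pass (adjusted p = 0.604), and over both lines the change was -2.31 (adjusted p = 0.0516). Over both lines the call was gained without the Gal4/7 control arrays, with a change of -2.93 and an adjusted p of 0.00271, or without either of them, or without atoGal4 x UASato array 3.

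Osi6 also differed between the control lines, and the comparison within each driver was therefore made as well. Against Gal4/7 alone, Gal4/7 x UASato was lower with a log2 fold change of -1.16 (adjusted p = 0.0356). Against atoGal4 alone, atoGal4 x UASato was lower with a log2 fold change of -2.49 (adjusted p = 0.0253). Osi6 was thus lower in each Ato GOF line than in its own driver control. The difference between these changes was -1.33 (SE 0.20) and did not pass the limma test (adjusted p = 0.0756). Whether background signal limited the fall to the 3.44 to 3.56 of Gal4/7 x UASato discs was not tested. The comparisons within a driver were chosen once the values were known.

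Osi4, 2 genes from Osi6 with Osi5 between them, had much the same order of lines. Its level was 4.12, 4.51 and 3.98 in Gal4/7 x UASato discs and 5.62, 5.47 and 5.91 in atoGal4 x UASato discs, against 4.90 and 5.36 in Gal4/7, 7.26 and 8.02 in atoGal4, 5.96 and 6.63 in UASato, and 6.43 and 7.07 in cantonS. The Gal4/7 x UASato arrays again lay below all controls, and the atoGal4 x UASato arrays below all but the Gal4/7 controls. None of the changes passed the test: -2.25 in Gal4/7 x UASato (adjusted p = 0.079), -0.79 in atoGal4 x UASato (adjusted p = 0.848) and -1.52 over both (adjusted p = 0.181). Osi5 ranged over 0.65 on all 20 arrays, with no such steps between lines.

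In ato-/- discs Osi6 and Osi4 were spread widely. Osi6 was at 4.03, 4.31 and 5.38, against 4.55 to 7.41 in the controls (log2 fold change -1.95, adjusted p = 0.08), and Osi4 was at 5.15, 6.26 and 5.60, within the control range. In Sens GOF discs Osi4 was within the control range too, at 6.91, 6.98 and 6.72. Osi6 was at 5.76, 5.97 and 5.98 there, above the Gal4/7 controls and below the other 6 control arrays. Its change over all 8 controls, -0.62, was not called (adjusted p = 0.658), whereas it was called lower against the atoGal4 driver alone (-1.50, adjusted p = 0.0269) and without the Gal4/7 controls (-1.24, adjusted p = 0.0186).

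**Figure D2:**
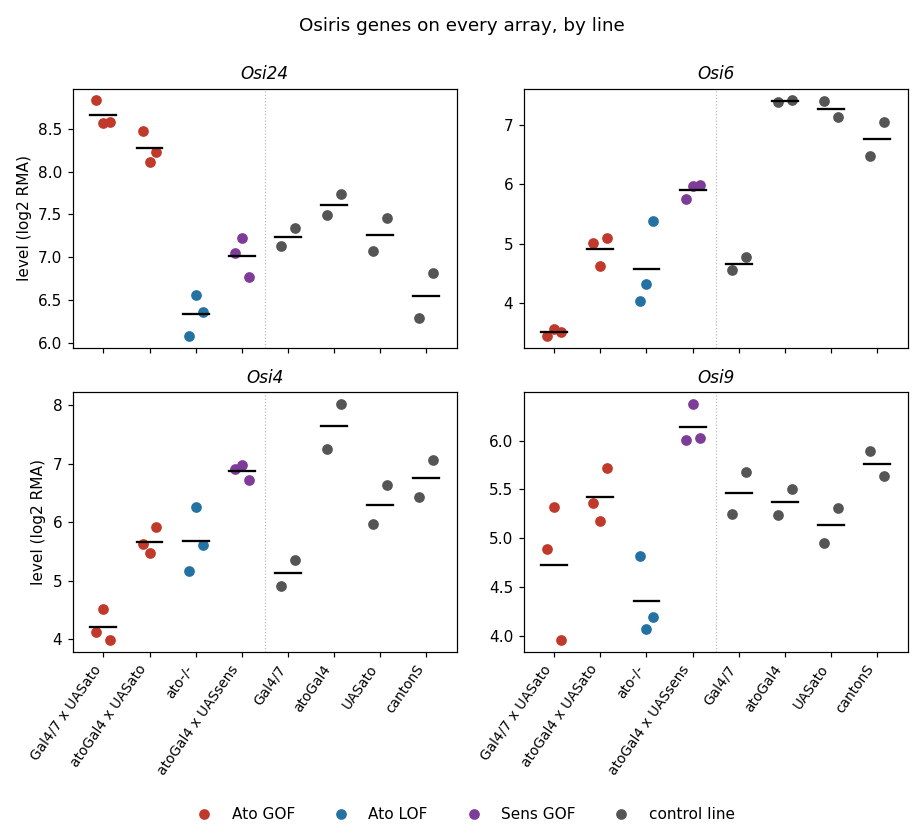
Log2 level (y axis) of Osi24, Osi6, Osi4 and Osi9 on each array, by line (x axis, with the 4 control lines right of the dotted line). Each point is 1 array and each bar the mean of a line: Osi24 is at 8.11 or above in both Ato GOF lines and at 7.73 or below elsewhere, while the Gal4/7 control stands at 4.55 and 4.78 for Osi6, below the other 3 control lines.

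Osi9 was the Osiris gene with the largest called change in ato-/- discs. Its level was 4.82, 4.07 and 4.19 in ato-/- discs, against 4.96 to 5.89 on the control arrays with a median of 5.40, and the groups did not overlap. The log2 fold change was -1.07 (SE 0.20, adjusted p = 0.00617). The call held whichever array was left out, and missed the threshold against the cantonS controls alone, where the change was -1.41 (adjusted p = 0.0581). In Sens GOF discs Osi9 was at 6.004, 6.38 and 6.03, above all controls, a change of 0.70 that missed the threshold (adjusted p = 0.0542).

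The other Osiris genes called in ato-/- discs changed little: Osi19 by -0.32, Osi17 by -0.30 and Osi22 by -0.30, with adjusted p values of 0.0419, 0.0261 and 0.0432. Osi19 and Osi22 each lost the call in 8 of the 11 analyses that leave out an array, and Osi17 without ato-/- array 2 or 3, and all 3 lost it against cantonS alone. Osi17 was the only 1 of these called in a second comparison, where it stood higher. Its level was 5.39, 5.38 and 5.66 in Gal4/7 x UASato discs, against 4.88 to 5.14 in the controls, a change of 0.45 (adjusted p = 0.0145) that was lost without Gal4/7 x UASato array 3 and against the Gal4/7 controls alone (0.58, adjusted p = 0.151). In all, 4 of the 24 Osi genes were called lower in LOF discs and 0 higher, with a median change of -0.09, and 6 of the 24 had a positive change, against 5621 of all 11982 genes. The 4 called lower make up 16.7% of the Osi genes, against 10.1% of all genes called lower and 16.4% called in either direction.

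Osi7 and Osi14 were among the flat Osiris genes, with ranges of 0.76 and 0.89 over all arrays, and neither was called in any comparison. No detection calls were used, so a flat probe set here does not tell whether the gene was transcribed in these discs.

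The Lcp65A cluster held 4 of the 14 genes called in ato-/- discs. On arm 3L, Lcp65Ag3, Cpr65Au, Lcp65Af, Lcp65Ae, Cpr65Av, Cpr65Aw, Lcp65Ad and Lcp65Ac follow each other within 10 neighbouring genes. Lcp proteins are cuticle proteins of the larva with the chitin-binding consensus. Lcp65Ac, Lcp65Af and Lcp65Ae were higher in ato-/- discs, Lcp65Ad was lower, and Lcp65Ag3, Lcp65Aa and the Cpr65A genes were not called.

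Lcp65Af was at 8.84, 9.27 and 8.85 in ato-/- discs, against 6.38 as the lowest, 6.65 as the median and 7.15 as the highest control array. The groups were well apart. Lcp65Af changed by 2.28 (SE 0.18, adjusted p = 2.58e-05), and against cantonS alone it was 1.85 (adjusted p = 0.0115).

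Lcp65Af was also 1 of the 2 genes called in Sens GOF discs, at 7.82, 7.86 and 7.29, again above every control array, a change of 0.95 (SE 0.19, adjusted p = 0.0212). That call was lost with Sens GOF arrays 1 and 2 averaged (0.86, adjusted p = 0.127), without either of these arrays, against atoGal4 alone (1.09, adjusted p = 0.108), and without the Gal4/7 controls (0.91, adjusted p = 0.0568). In atoGal4 x UASato discs it stood at 5.91, 6.35 and 6.16, just below every control, and the change of -0.56 was not called (adjusted p = 0.442).

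Lcp65Ac was at 10.63, 11.11 and 9.76 in ato-/- discs, against 4.85 as the lowest, 7.04 as the median and 8.88 as the highest control array. The LOF arrays were above all controls, but the 2 Gal4/7 arrays alone, at 8.88 and 4.85, spanned the whole control range. Its change was 3.22 (SE 0.79, adjusted p = 0.021), the largest called change among the 128 genes in any comparison. It was lost without ato-/- array 1 or 2 (highest adjusted p = 0.0985) and against cantonS alone (2.59, adjusted p = 0.123).

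Lcp65Ad went the opposite way to Lcp65Ac, the gene next to it. It was at 5.23, 5.44 and 5.26 in ato-/- discs, against 6.06 as the lowest, 6.78 as the median and 7.20 as the highest control array, with no overlap. This gave a change of -1.39 (SE 0.21, adjusted p = 0.00171), and against cantonS alone it was -1.81 (adjusted p = 0.0051). Sens GOF discs had 7.19, 7.49 and 7.81, mostly above the controls, a change of 0.80 that was not called (adjusted p = 0.078).

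Lcp65Ae changed less, with 3.98, 4.52 and 4.09 in ato-/- discs, against 3.15 to 3.77 in the controls (log2 fold change 0.63, adjusted p = 0.0128), and the call was lost without ato-/- array 2 and against cantonS alone. Lcp65Aa was flat, between 7.08 and 7.87 on all arrays. Between Lcp65Ae and Lcp65Ad, Cpr65Av was at 5.56, 5.55 and 5.58 in ato-/- discs and Cpr65Aw at 4.63, 4.40 and 4.49, both within the control range.

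Other cuticle genes outside this cluster were called in ato-/- discs as well. Cpr11A, a gene with the chitin-binding consensus on the X chromosome, was at 5.98, 6.83 and 6.37 in ato-/- discs, against 4.02 as the lowest, 4.60 as the median and 5.04 as the highest control array. All LOF arrays lay above all controls. Cpr11A changed by 1.83 (SE 0.21, adjusted p = 0.000364), and the call held in all 18 alternative analyses in which it was tested, with changes of 1.61 to 2.04. In Sens GOF discs arrays 1 and 2 stood at 5.55 and 5.74 and array 3 at 4.25, so that the change of 0.61 was not called (adjusted p = 0.279).

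TwdlT, a Tweedle gene, was at 6.39, 4.97 and 5.77 in ato-/- discs, against 7.35 as the lowest, 8.05 as the median and 8.72 as the highest control array. The groups did not overlap, although the LOF arrays were themselves well apart. The log2 fold change was -2.29 (SE 0.34, adjusted p = 0.00171), and against cantonS alone it was -2.50 (adjusted p = 0.0475). The call held in all 19 alternative analyses. All Ato GOF arrays stood above the control median, with 8.19, 8.87 and 8.54 in Gal4/7 x UASato and 10.39, 8.25 and 8.28 in atoGal4 x UASato discs. Neither of these changes was called, and the highest of these values came from 1 array.

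Twdlbeta was the second Tweedle gene called in ato-/- discs. It was at 6.28, 5.05 and 4.91 there, against 4.27 to 4.82 in the controls (log2 fold change 0.95, adjusted p = 0.0232), and the call was lost against cantonS alone (0.80, adjusted p = 0.4). The change dropped to 0.52 without ato-/- array 1, with the call kept. The remaining 22 Twdl genes were not called, and the median change of the 24 was 0.04.

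Cpr49Ae, Cpr72Eb and Cpr66Cb made up the rest of the LOF calls, all with small changes. Cpr49Ae was 0.36 higher (adjusted p = 0.03), with 4.02, 4.26 and 4.14 in ato-/- discs and 3.48 to 3.95 in the controls. Cpr72Eb changed by -0.53 (adjusted p = 0.0437) and Cpr66Cb by -0.43 (adjusted p = 0.0358). All 3 were lost against cantonS alone. Leaving out 1 array at a time, the call was lost for Cpr49Ae without ato-/- array 2 or 3, for Cpr66Cb without any of 4 arrays and for Cpr72Eb without any of 8 arrays.

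**Figure D3:**
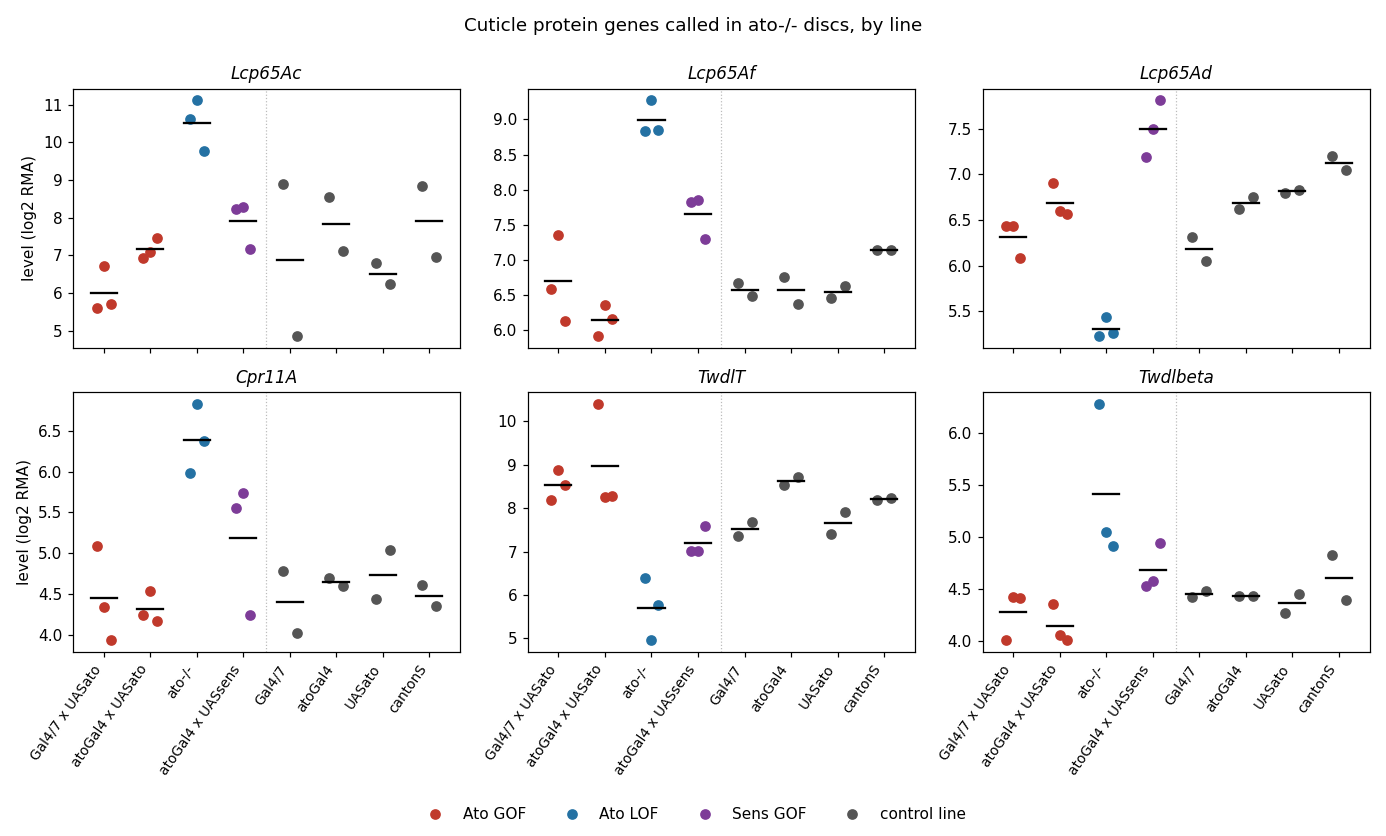
Log2 level (y axis) of 6 cuticle protein genes called in ato-/- discs on each array, by line (x axis, with the 4 control lines right of the dotted line). Each point is 1 array and each bar the mean of a line: in ato-/- discs Lcp65Ac, Lcp65Af, Cpr11A and Twdlbeta lie above all control arrays, and Lcp65Ad and TwdlT below all of them.

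Other genes of cuticle formation and of the hormonal timing of moults were set beside these. Genes for chitin synthesis and modification, cuticle assembly and tanning formed a list of 40 measured genes. Of these, 5 were called higher and 9 lower in ato-/- discs (6.34% and 10.1% of all genes), with a median change of -0.05. The higher ones included Idgf5 (1.98), Idgf6 (1.61) and Idgf2 (1.34), which encode secreted proteins related to chitinases. The lower ones included dyl (-1.10) and dy (-1.03), which encode zona pellucida domain proteins of the apical matrix, and the chitinase gene Cht10 (-0.94). In the Ato GOF lines together and in Sens GOF discs 0 of the 40 were called in either direction, and in Gal4/7 x UASato discs dyl alone was (-1.23, adjusted p = 0.0273).

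Of 20 measured ecdysone response genes, 10 were called lower and 1 higher in ato-/- discs, against 10.1% and 6.34% of all genes. The median change of the 20 was -0.82, against -0.02 over all genes. Eip78C (-2.27), Hr4 (-2.15) and Blimp-1 (-2.06) had the largest decreases, and the 1 higher gene was ftz-f1 (1.37). The mean level of these 20 genes was 8.09, 8.19 and 8.83 on the ato-/- arrays, against 8.88 to 9.42 on the control arrays. The ato-/- array at 8.83 was thus close to the lowest control array. On it Lcp65Af (8.85), Lcp65Ad (5.26), TwdlT (5.77) and Cpr11A (6.37) lay between their levels on the other ato-/- arrays. So did Osi9 (4.19), Lcp65Ae (4.09) and Cpr49Ae (4.14). Lcp65Ac (9.76), Twdlbeta (4.91) and Cpr72Eb (5.17) were nearer to the controls there than on the other ato-/- arrays. Cpr66Cb (5.40), Osi17 (4.60), Osi19 (3.57) and Osi22 (3.39) were farther from the controls there. The part of the ecdysone response genes in the LOF changes of the cuticle and Osiris genes was not tested.

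Markers of the disc itself differed as well. Of the 11 eye-antennal disc markers 3 were called lower and 0 higher in ato-/- discs, against 10.1% and 6.34% of all genes. The 3 were eya (-1.42), so (-1.02) and elav (-1.64), and the median change of the list was -0.20. The mean level of the list was 9.56 to 9.72 on the ato-/- arrays, against 9.64 to 10.25 on the control arrays. In Sens GOF discs so (-0.57), Dll (-0.64) and elav (-0.48) were called lower (2.21% of all genes were), with a median of -0.30. Of the 8 hemocyte genes 1, NimC1, was called lower in ato-/- discs (-2.003), with a median change of -0.14. In the midgut and muscle lists 0 genes were called there, with median changes of 0.61 and 0.88. The midgut list was at 6.91, 6.86 and 6.54 on the ato-/- arrays. Its control arrays stood at 4.74 to 10.09, the highest being Gal4/7 array 2. The muscle list was at 8.65, 9.80 and 9.49, against 7.78 to 10.50 on the control arrays. Of 3 measured heat shock response genes 1 was called lower and 0 higher in ato-/- discs, with a median change of -0.45. Of 7 measured trachea and epidermis genes 2 were called lower and 0 higher there, with a median change of -0.15. In Gal4/7 x UASato discs 1 of these 7 was called higher (1.96% of all genes were), and in Sens GOF discs 1 was called lower. The part of these in the cuticle and Osiris gene changes was not tested. The same holds for the heat shocks and the stock background, whose effects and those of losing ato cannot be told apart here. In whole discs, fewer cells of a type and less RNA per cell cannot be told apart either.

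Of the 7 genes called in Gal4/7 x UASato discs, 2 belong to the Cpr47E cluster. The 7 genes of this cluster, Cpr47Ea to Cpr47Eg, lie within 9 neighbouring genes on arm 2R and encode proteins with the chitin-binding consensus. Cpr47Ea and Cpr47Ec were called higher, and the other 5 were not called.

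Cpr47Ea was at 4.69, 7.24 and 7.19 in Gal4/7 x UASato discs, against 3.74 as the lowest, 3.92 as the median and 3.99 as the highest control array. On every array of the other lines it stayed between 3.69 and 4.06, including the 3.81, 3.83 and 3.70 of atoGal4 x UASato discs. The log2 fold change was 2.48 (SE 0.42, adjusted p = 0.0102).

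Cpr47Ec was at 6.76, 8.86 and 8.29 in Gal4/7 x UASato discs, against 5.07 as the lowest, 5.94 as the median and 6.23 as the highest control array, a change of 2.08 (SE 0.37, adjusted p = 0.0133). In both genes array 1 stood well below arrays 2 and 3, yet above all controls. Both calls were lost without Gal4/7 x UASato array 2 or 3 (highest adjusted p of 0.0847 for Cpr47Ea and 0.0984 for Cpr47Ec) and against the Gal4/7 controls alone, where the changes were 2.42 and 1.91 (adjusted p of 0.361 and 0.346). Without array 1 the change of Cpr47Ea was 3.32 (adjusted p = 1.63e-08).

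Cpr47Ec was moderately high in other genotypes too. It was at 7.75, 6.55 and 6.29 in ato-/- discs and at 6.40, 6.69 and 7.15 in Sens GOF discs, each above all control arrays. Both changes missed the threshold, at 0.98 (adjusted p = 0.0528) and 0.86 (adjusted p = 0.0638). Of the genes beside it, Cpr47Eb was at 5.997, 6.95 and 6.65 in Gal4/7 x UASato discs, against 6.07 to 7.78 in the controls, and Cpr47Ed was at 3.95, 4.19 and 4.10, against 3.63 to 4.02.

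Cpr51A had 12.27, 13.24 and 13.27 in Gal4/7 x UASato discs, against 10.68 as the lowest, 11.49 as the median and 12.13 as the highest control array. The change was 1.47 (SE 0.33, adjusted p = 0.044), and the call was lost without any of 8 of the 11 arrays. The lowest Gal4/7 x UASato array lay close to the highest control array, which was a cantonS array. Lcp65Ag3, of the Lcp65A cluster, was at 4.49, 4.34 and 4.002, against 3.27 to 3.77 in the controls (0.70, SE 0.13, adjusted p = 0.0179), and its call was lost without Gal4/7 x UASato array 1 or 2.

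Markers of other cells also differed in Gal4/7 x UASato discs. Of 8 measured hemocyte genes, 4 (Sr-CI, NimC1, Hml and eater) were called higher there, against 1.96% of all genes. The median change of the 8 was 1.32. Their mean level was 9.39, 10.21 and 9.49 on the Gal4/7 x UASato arrays, against 7.78 to 8.90 on the controls. Their part in the cuticle gene changes was not tested. The fat body list of 4 genes stood at 11.59, 7.10 and 10.43 on the same arrays, and the 8 salivary gland genes at 12.64, 5.28 and 5.21, so that array 1, which was lower in Cpr47Ea and Cpr47Ec, also differed in salivary gland transcripts. The salivary gland list ranged from 5.21 to 13.09 over all arrays.

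**Figure D4:**
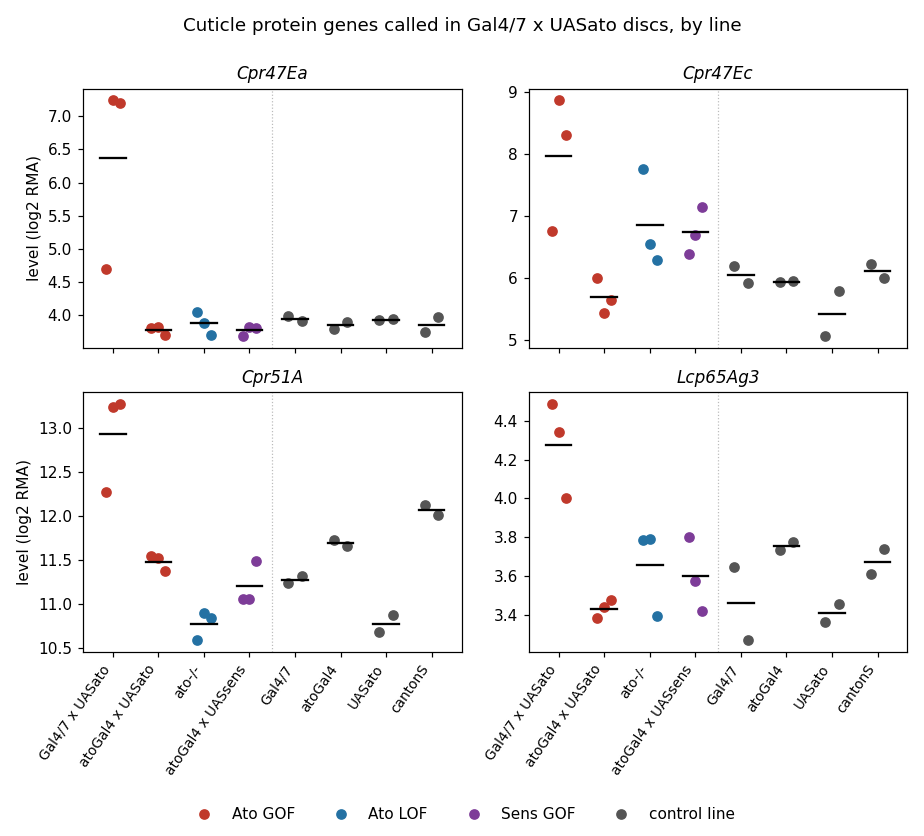
Log2 level (y axis) of the 4 cuticle protein genes called higher in Gal4/7 x UASato discs on each array, by line (x axis, with the 4 control lines right of the dotted line). Each point is 1 array and each bar the mean of a line: Cpr47Ea is at 7.24 and 7.19 on arrays 2 and 3 of Gal4/7 x UASato and at 4.69 on array 1, with all other lines at 4.06 or below.

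The difference between the drivers was tested directly, with atoGal4 x UASato minus atoGal4 set against Gal4/7 x UASato minus Gal4/7. None of the 128 genes passed in either direction, against 0.00835% of all genes higher and 0.0751% lower, and 15 had an unadjusted p under 0.05 (11.7%, against 8.91% of all genes). The largest negative differences were -2.50 for Cpr47Ea (SE 0.93, adjusted p = 0.54) and -2.16 for Cpr47Ec (SE 0.73, adjusted p = 0.482). Both were called without Gal4/7 x UASato array 1, with adjusted p values of 0.00021 and 0.023. The largest positive differences were 2.68 for Lcp9 and 2.31 for Cpr60D, with adjusted p values of 0.783 and 0.773. They rest on Gal4/7 control array 1, without which they were -0.49 and -0.24, and they were called without Gal4/7 control array 2, at 5.84 (adjusted p = 0.00209) and 4.86 (adjusted p = 0.000397).

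In Sens GOF discs the second called gene was Cpr97Eb. Its highest level of all arrays was 5.77 on ato-/- array 1, with 3.80 and 3.74 on ato-/- arrays 2 and 3. In Sens GOF discs it was at 4.67, 5.26 and 5.62, against 3.85 to 4.70 in the controls. Sens GOF array 1 thus lay within the control range. The change was 0.93 (SE 0.20, adjusted p = 0.0308), and the call was lost with arrays 1 and 2 averaged (1.04, adjusted p = 0.068), in 5 of 11 analyses that leave out an array and against atoGal4 alone (1.01, adjusted p = 0.184). With the near-identical arrays averaged, 0 of the 128 genes were called higher in Sens GOF discs.

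The largest change in Sens GOF discs was that of Cpr49Ag, which was not called against all controls. It was at 8.19, 8.13 and 8.38, against 5.48 and 5.44 in atoGal4, 7.27 and 6.75 in Gal4/7, 6.12 and 6.52 in UASato, and 8.61 and 5.01 in cantonS. The Sens GOF arrays lay above 7 of the 8 controls, the exception being cantonS array 1. Cpr49Ag was also at 8.50, 5.62 and 7.36 in ato-/- discs and at 7.98, 5.63 and 5.27 in Gal4/7 x UASato discs. Over all controls the change in Sens GOF discs was 1.83 (adjusted p = 0.14). Against the atoGal4 driver alone it was 2.77 (adjusted p = 0.00896), and without cantonS array 1 the call was also gained (adjusted p = 0.0183). Cpr100A, at 7.63, 7.50 and 6.75 in Sens GOF discs, overlapped the controls at 4.57 to 9.08 (1.02, adjusted p = 0.512).

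The control lines differed from each other in 4 of the 128 genes, against 0.818% of all genes (F test in limma, 2 arrays a line, with 19 genes, or 14.8%, at an unadjusted p under 0.05, against 11.3% of all genes). Osi6, described above, had line means over a range of 2.73 (adjusted p = 0.012). Cpr97Ea had 9.06 and 9.05 in UASato, 8.29 and 8.69 in atoGal4, 7.31 and 7.17 in Gal4/7, and 6.76 and 6.45 in cantonS, so that no line overlapped another (range of means 2.45, adjusted p = 0.00984). TwdlE was highest in UASato, at 9.75 and 9.94, and lowest in cantonS, at 8.59 and 8.46 (1.32, adjusted p = 0.0243). Cpr51A was highest in cantonS, at 12.13 and 12.01, and lowest in UASato, at 10.68 and 10.88 (1.29, adjusted p = 0.0216).

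Each of these 4 calls was lost when some single control arrays were left out, 7 of 8 for Cpr51A and TwdlE, 4 for Osi6 and 2 for Cpr97Ea, the last being the UASato arrays. Cpr97Ea in Gal4/7 x UASato discs, at 6.10, 6.01 and 6.40, lay below all controls, and its distance from the controls as a whole depends on which line it is set against. Cpr72Ea showed the same dependence in atoGal4 x UASato discs. It was at 7.77, 7.70 and 8.01 there, against 5.23 to 8.82 in the controls, and the change of 1.02 over all controls (adjusted p = 0.815) became -0.29 against the atoGal4 controls alone.

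Other cuticle genes were named for their level and had no called change against the controls. Cpr49Ac was at 10.83 to 13.12, Cpr12A at 6.64 to 9.53, Cpr66D at 7.55 to 9.27 and Cpr78E at 7.27 to 12.95 over the 20 arrays. Cpr66D stood at 9.27, 9.19 and 9.20 in Gal4/7 x UASato discs, just above all controls, and at 8.07, 8.11 and 7.55 in Sens GOF discs, just below them, without passing the test in either.

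A last group of genes was high on single arrays. Gal4/7 control array 1 was the highest of all arrays for 8 of the 38 genes that ranged over more than 2. It lay over 1 above every other control array in 9 of the 128. The matching shares of all genes are not given here. Over all probe sets the 2 Gal4/7 control arrays also differed more than any other pair of a line (SD 0.759). Lcp9 was at 11.84 on Gal4/7 array 1 and at 5.52 on Gal4/7 array 2. Cpr78E was at 12.95 and 7.75, Cpr60D at 9.22 and 4.12, and Cpr67B at 10.88 and 6.11. On Sens GOF array 3, Lcp9 was at 10.91, Cpr78E at 10.44 and Pcp, a pupal cuticle protein gene, at 9.33, against 6.92, 8.07 and 6.86 on Sens GOF array 2.

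These values set arrays of the same line apart and are no difference between genotypes. The muscle list of 7 genes was at 10.50 on Gal4/7 array 1, its highest level, and at 7.79 on Gal4/7 array 2, and on array 2 the midgut list of 6 genes was at 10.09, against 4.74 on array 1. The part of such RNA in the cuticle gene levels was not tested. Without the Gal4/7 control arrays the counts were 1 higher and 1 lower in Ato GOF, 0 and 1 in atoGal4 x UASato, 6 and 5 in Ato LOF, and 0 and 1 in Sens GOF discs. The shares of all genes called with these controls are not given here.

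**Figure D5:**
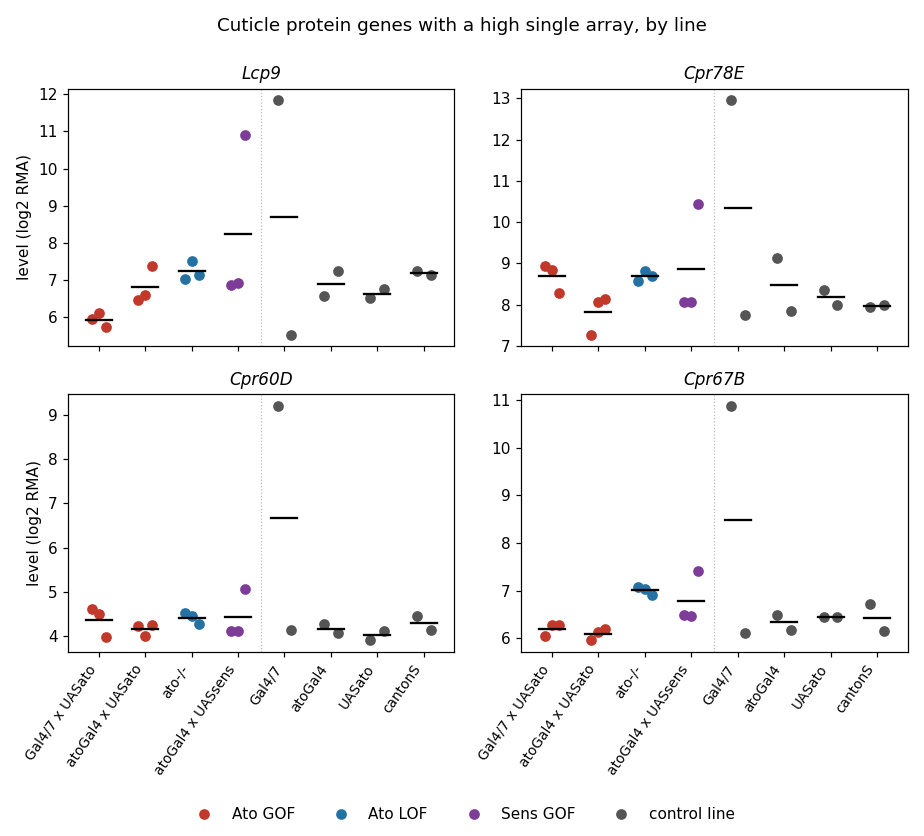
Log2 level (y axis) of Lcp9, Cpr78E, Cpr60D and Cpr67B on each array, by line (x axis, with the 4 control lines right of the dotted line). Each point is 1 array and each bar the mean of a line: 1 of the 2 Gal4/7 control arrays stands at 11.84, 12.95, 9.22 and 10.88, far above the other Gal4/7 array.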

How the data were processed

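The authors deposited 1 log2 level per probe set and array, made with RMA (background correction, quantile normalization, probe summary; version not given in the sources used here). Of 18952 probe sets, 183 Affymetrix controls were left out. Probe sets were named from the platform annotation, and 13647 of them name 1 gene, 402 several and 4720 none. RefSeq gave current names and neighbouring genes.

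Groups were taken from the labels. All 18769 probe sets were fitted in limma 3.58.1 (R 4.3.3), with only the groups compared in each fit and no filter, and p-values were Benjamini-Hochberg adjusted. A background share counts the brightest probe set of each of 11982 genes. The script was tested on simulated data. Levels of different probe sets were compared only to choose probe sets and the genes to name, and the number of arrays limits the precision.

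Named genes were, per comparison, those called, topped up to 4 by the largest changes, and the brightest and most variable genes. Cpr67B, Pcp and the neighbours of called genes were chosen after their values were seen. Genes, lists and tests were chosen with earlier results of these data known. Alternatives were a filter at the median level, 1 fit of all 8 lines, repeated quantile normalization, a replicate block, the line as a random block, fewer controls, any probe set, and leaving out each array.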

Additional observations from a re-analysis of the deposited data

Results flagged for a closer look

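Among the 8 control arrays and the 6 Ato GOF arrays, single values that lie far from the others were looked for in the 37 named genes with Dixon's ratio, which is the gap to the nearest other array over the range of the group. Of 74 groups of values 9 held such an array. Chance gives about 1 in 20, a rate that does not apply to genes named for their large changes and wide ranges. The widest gaps were in Gal4/7 control array 1, at 9.22 for Cpr60D (next highest control 4.45), 12.95 for Cpr78E (next 9.13) and 11.84 for Lcp9 (next 7.24). TwdlT was at 10.39 on atoGal4 x UASato array 1, with the next highest Ato GOF array at 8.87. The other 5 were small in size: Cpr47Ec at 5.07 on UASato array 1 (next lowest control 5.80), Cpr49Ae at 3.48 on atoGal4 array 2 (next 3.73), Lcp65Ae at 3.15 on atoGal4 array 1 (next 3.54), Cpr72Eb at 6.08 on atoGal4 array 2 (next highest 5.56) and Twdlbeta at 4.82 on cantonS array 1 (next 4.47). No cause of these values was tested. The driver difference held 0 called genes of the 128 in limma, with 15 at an unadjusted p under 0.05 (11.7%, against 8.91% of all genes).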

How the results depend on the processing

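No called gene changed sign under any alternative run. Osi24 (Ato GOF) and Lcp65Af, Lcp65Ad, Cpr11A and TwdlT (Ato LOF) kept their calls in all alternatives run in which they were tested (Cpr11A was too dim for the filter). Leaving out 1 array at a time gave 1 to 2 higher and 0 to 1 lower in Ato GOF (1 and 0 with all arrays), 1 to 6 and 0 to 2 in Gal4/7 x UASato (6 and 1), 0 and 0 in atoGal4 x UASato, 3 to 8 and 3 to 8 in Ato LOF (6 and 8), 0 to 6 and 0 to 1 in Sens GOF (2 and 0), 0 to 6 and 0 to 4 in the driver difference (0 and 0), and 0 to 7 genes between control lines (4). The lowest counts came without Gal4/7 x UASato array 2 or 3 (1 higher), without ato-/- array 2 (3 higher) or 3 (3 lower), without Sens GOF array 2 (0 higher) and without either UASato array (0 between control lines), and the highest without cantonS array 1 (6 higher in Sens GOF), Gal4/7 control array 2 (6 higher in the driver difference, 7 between control lines) or Gal4/7 x UASato array 1 (4 lower in the driver difference). Where a line was left with 1 array, its spread was taken from the other lines.

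One fit of all 8 lines gave 4 higher and 4 lower in Ato GOF, 3 lower in Gal4/7 x UASato, 1 and 1 in atoGal4 x UASato, 15 lower in Ato LOF, 2 lower in Sens GOF, 2 lower in the driver difference and 11 between control lines. Restricting the test to probe sets no dimmer than the median gave 3 higher and 0 lower in Gal4/7 x UASato and 3 and 5 in Ato LOF, which follows from dimmer genes leaving the test. The nearest controls alone gave 3 higher and 0 lower in Gal4/7 x UASato, 1 lower in atoGal4 x UASato, 3 and 5 in Ato LOF, and 1 and 1 in Sens GOF. The line as a random block gave 5 lower in Ato LOF and 1 higher in Sens GOF, with Osi19, Osi22 and Cpr72Eb (Ato LOF), Cpr51A (Gal4/7 x UASato) and Cpr97Eb (Sens GOF) losing their calls. Added after the data were seen, the driver control alone gave 1 higher in Gal4/7 x UASato and 1 lower in atoGal4 x UASato, the controls without Gal4/7 gave 1 lower in Ato GOF, 1 lower in atoGal4 x UASato, 5 lower in Ato LOF and 0 higher and 1 lower in Sens GOF, and Sens GOF arrays 1 and 2 averaged gave 0 higher. The shares of all genes called under the alternatives are not given here. Fewer or more calls may therefore not be particular to these genes, and the cause of these differences was not tested.

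The replicate numbers in the labels were not used to pair the samples in the main fits. Of 62 pairs of arrays with the same number 27 (43.5%, median correlation 0.085) had deviations correlated above 0.1. Among 112 pairs with different numbers 27 did (24.1%, median -0.04). Same-numbered arrays thus deviated together more often, which the main fits do not take into account. The deviations were taken from the line means, so in a line of 2 arrays they are equal and opposite. The same-numbered and different-numbered pairs are therefore not independent of each other. With the replicate block the counts were 1 higher and 0 lower in Gal4/7 x UASato, 4 lower in Ato LOF and 1 lower in Sens GOF. The calls lost were Cpr47Ea (adjusted p = 0.0616), Cpr47Ec (0.0897), Osi24 (0.062), Osi6 (0.201), Cpr51A (0.279) and Osi17 (0.116) in Gal4/7 x UASato, Cpr49Ae, Cpr66Cb, Osi17, Osi19 and Osi22 in Ato LOF, and Cpr97Eb in Sens GOF. With 2 or 3 arrays a line, and several genes near background, a missed threshold does not show that a gene did not change.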
